A study of Mus musculus with 6 samples.

Results

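The genes described here are the heat shock proteins and the DnaJ co-chaperones, taken as every protein coding row of the deposited table whose symbol starts with Hsp or Dnaj, with Hspg2, the matrix proteoglycan perlecan, left out. The rule found 74 of 54352 rows, 29 with an Hsp name and 45 with a Dnaj name. RNA from mouse hearts was sequenced after removal of ribosomal RNA in 6 libraries, 2 per group. Control mice ate regular lab chow and received no vector. The other mice were C57BL/6, received a high fat diet (60% of calories from fat) and 1 injection of the beta cell toxin streptozotocin (75 mg/kg) from 12 weeks of age, and were classed as having type 2 diabetes (T2D) 20 weeks into the diet. When 16 to 18 weeks had passed since streptozotocin they received adeno-associated virus (AAV) by jugular injection, and hearts were studied 4 weeks later. In the T2D empty vector group the virus carried no cargo, and in the T2D dnMCUb group it carried mouse MCUb with a FLAG tag and the changes W246R and V251E, a dominant negative form of this subunit of the mitochondrial calcium uniporter. The sources used here give neither the vector's promoter nor the age and strain of the controls. They do not say whether both libraries of a group are separate animals, so the p-values reflect only how these libraries vary, which may be technical. The diabetic groups are called empty vector and dnMCUb hearts below. Control differed from the diabetic groups in diet, toxin and vector at the same time.

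Heat shock proteins are molecular chaperones that bind unfolded protein. HSP70 proteins hold short unfolded stretches in a cycle driven by ATP. J proteins, encoded by the Dnaj genes, deliver clients to HSP70 and start its ATP hydrolysis, HSP110 proteins exchange its nucleotide, and HSP90 proteins act on nearly folded clients such as kinases and steroid receptors. Small heat shock proteins hold clients without ATP and are abundant in striated muscle. The endoplasmic reticulum and the mitochondrial matrix have their own HSP70, HSP90 or HSP60 machines. Heat shock factors induce the cytosolic genes through repeats of GAA and TTC in their promoters, and the unfolded protein response induces those of the endoplasmic reticulum.

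Values are regularized log (rlog) values on the log2 scale, in which low genes are drawn strongly to their mean. A gene was tested where its mean over the 6 libraries was at least 5, which kept 65 of the 74 members among 13094 genes. The 9 below that level were Hspb9, Dnajb3, Dnajb7, Dnajb8, Dnajb13, Dnajc5b, Dnajc5g, Dnajc6 and Dnajc22, with Dnajb8 listed at 0 in all libraries. Differences on this scale are smaller than log2 folds: their median ratio to the folds in the authors' deposited table, over the members tested, was 0.518 for empty vector against control, 0.494 for dnMCUb against empty vector and 0.531 for dnMCUb against control. Markers of ventricular myocytes, such as Myl2 and Tnnt2, were high throughout (log2 of their summed level 19.70 to 20.10 over 6 of 6 markers). Mcub, the gene of the vector's cargo, stood at 5.42 and 5.47 in control, 5.48 and 5.46 with empty vector and 5.62 and 5.47 with dnMCUb, so the second T2D dnMCUb library lay within the range of the other groups and this gene does not check its label. Groups are named by their labels. The first T2D dnMCUb library stood apart, at 10.82 on the first principal component (46.69% of variance) where the others lay between -4.42 and 2.69. In that library the mean of 4 atrial myocyte markers was 1.34 relative to its average over the libraries, that of 5 fibroblast markers 0.43 and that of 6 ventricular markers -0.20. The second T2D dnMCUb library was at -0.62, -0.13 and 0.04 for the same lists. Control libraries were also split for the atrial markers, at 0.70 and -0.42, while the T2D empty vector libraries were at -0.59 and -0.41. In bulk RNA fewer cells of a type and less RNA per cell cannot be told apart, and the part of these shifts in the results was not tested.

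By level per length, the mean rlog minus the log2 of transcript length in kilobases, the order was led by chaperones of muscle and of each compartment. Hspb7, a small heat shock protein of heart and skeletal muscle, stood at 12.54 and Hsp90ab1, the constitutive cytosolic HSP90, at 12.52. Hspb8, which works with the co-chaperone Bag3 in autophagy of damaged filaments, was at 12.34 and Hspa9, the HSP70 of the mitochondrial matrix, at 12.27. These 4 levels are close, and their order was not tested. Hspa8, the constitutive cytosolic HSP70, followed at 11.97, Hspa5, the HSP70 of the endoplasmic reticulum also called BiP, at 11.68, its HSP90 partner Hsp90b1 at 11.43 and the vascular and cardiac small protein Hspb6 at 11.30. The median over the members tested was 7.91, against 7.04 over all protein coding genes tested. The heat-inducible HSP70 genes Hspa1a (4.04) and Hspa1b (4.21) were near the bottom of the order, above Hspbap1 (3.61) alone.

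**Figure D1:**
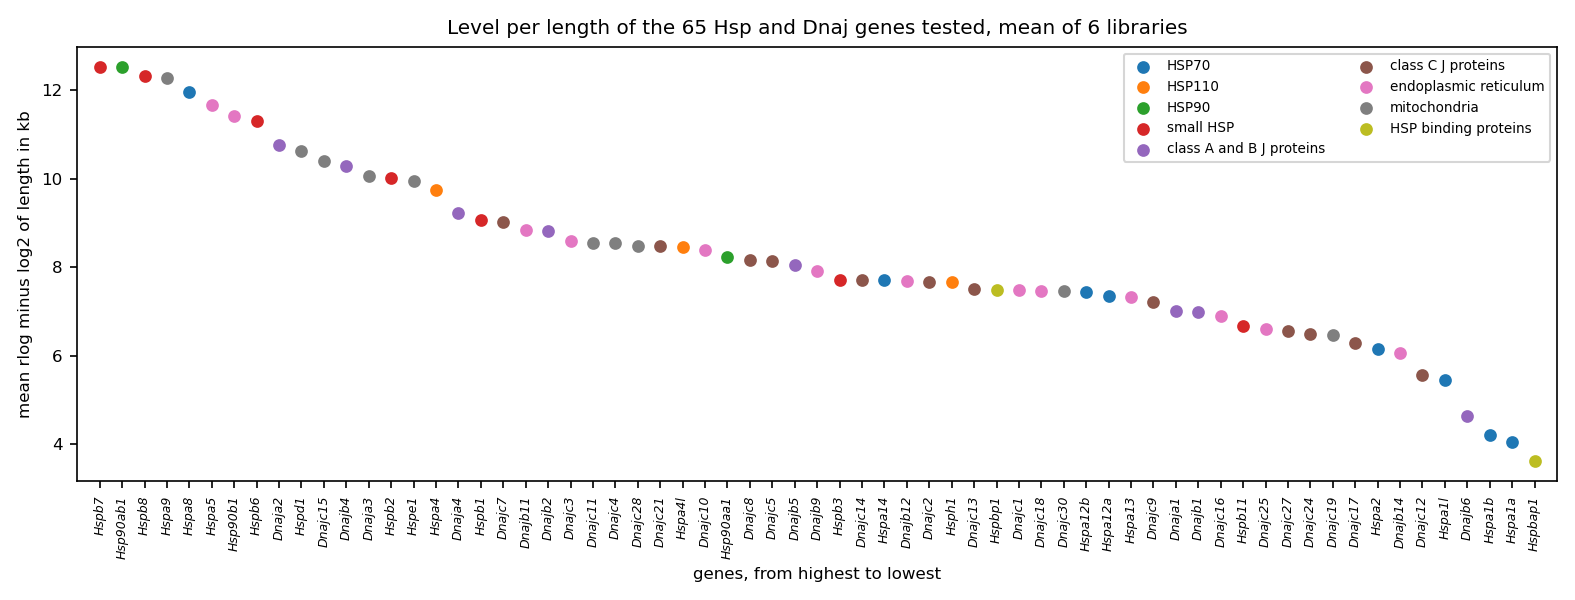
Level per length (mean rlog of 6 libraries minus log2 of transcript length in kb, vertical axis) of the 65 Hsp and Dnaj genes tested, ordered from highest to lowest and coloured by role. Hspb7, Hsp90ab1, Hspb8, Hspa9, Hspa8, Hspa5, Hsp90b1 and Hspb6 fill the top, from Hspb7 at 12.54. The other small heat shock proteins tested lie lower, from Hspb2 at 10.03 to Hspb11 at 6.67, and Hspa1a and Hspa1b lie at 4.04 and 4.21.

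No member passed in any of the 3 comparisons when limma's p was adjusted over all 13094 genes. For empty vector against control, 0 genes in all were called (0% of genes tested), for dnMCUb against empty vector 0 (0%), and for dnMCUb against control 9 (0.0687%). At an unadjusted p under 0.05, limma had 3, 8 and 7 members in that order (4.62%, 12.3% and 10.8% of members), where the share over all genes was 6.13%, 5.64% and 11.4%. By direction, the first comparison had 0 members higher (3.26% of all genes) and 3 lower (2.87%), and the second 7 higher (3.12%) and 1 lower (2.53%). The third had 2 higher (5.89%) and 5 lower (5.54%). The share of members was above that of all genes in the second comparison, from its higher side. The authors' deposited table has 1 member past an adjusted p of 0.05, Hspa5 between T2D empty vector and control (0.255% of its rows with a fold), and 0 in the other comparisons (0.0311% between the T2D groups and 0.357% for dnMCUb against control). The comparisons share libraries in pairs, so a gene that is low with empty vector stands lower in the first and higher in the second from the same values.

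The members as a set leaned to lower values in diabetic hearts with empty vector. Of the 65, 45 were lower than in control and 20 higher, with a median difference of -0.04 where the median over all genes was -0.0025, with 51.8% of genes lower and 48.2% higher. Groups did not overlap for 28 members on the lower side and 5 on the higher, that is 43.1% and 7.69% of members, where the same held for 22.5% and 19.9% of all genes. The ventricular myocyte markers were also lower in this comparison, 6 of 6 with groups apart and a median of -0.17, and their part in the members' values was not tested. Between the T2D groups the median was -0.01, with 28 members higher and 37 lower with dnMCUb (49.5% and 50.5% of all genes). There 15 members were apart on the higher side and 14 on the lower (23.1% and 21.5%, against 15.6% and 16.5% of all genes). Without the first T2D dnMCUb library that median was 0.02 and without the second -0.02. dnMCUb against control had a median of -0.03, with 23 members higher and 42 lower (48.5% and 51.5% of all genes). Groups were apart for 23 on the lower side and 8 on the higher (35.4% and 12.3%, against 22.7% and 20.2%). These counts describe the list and are no test of it.

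**Figure D2:**
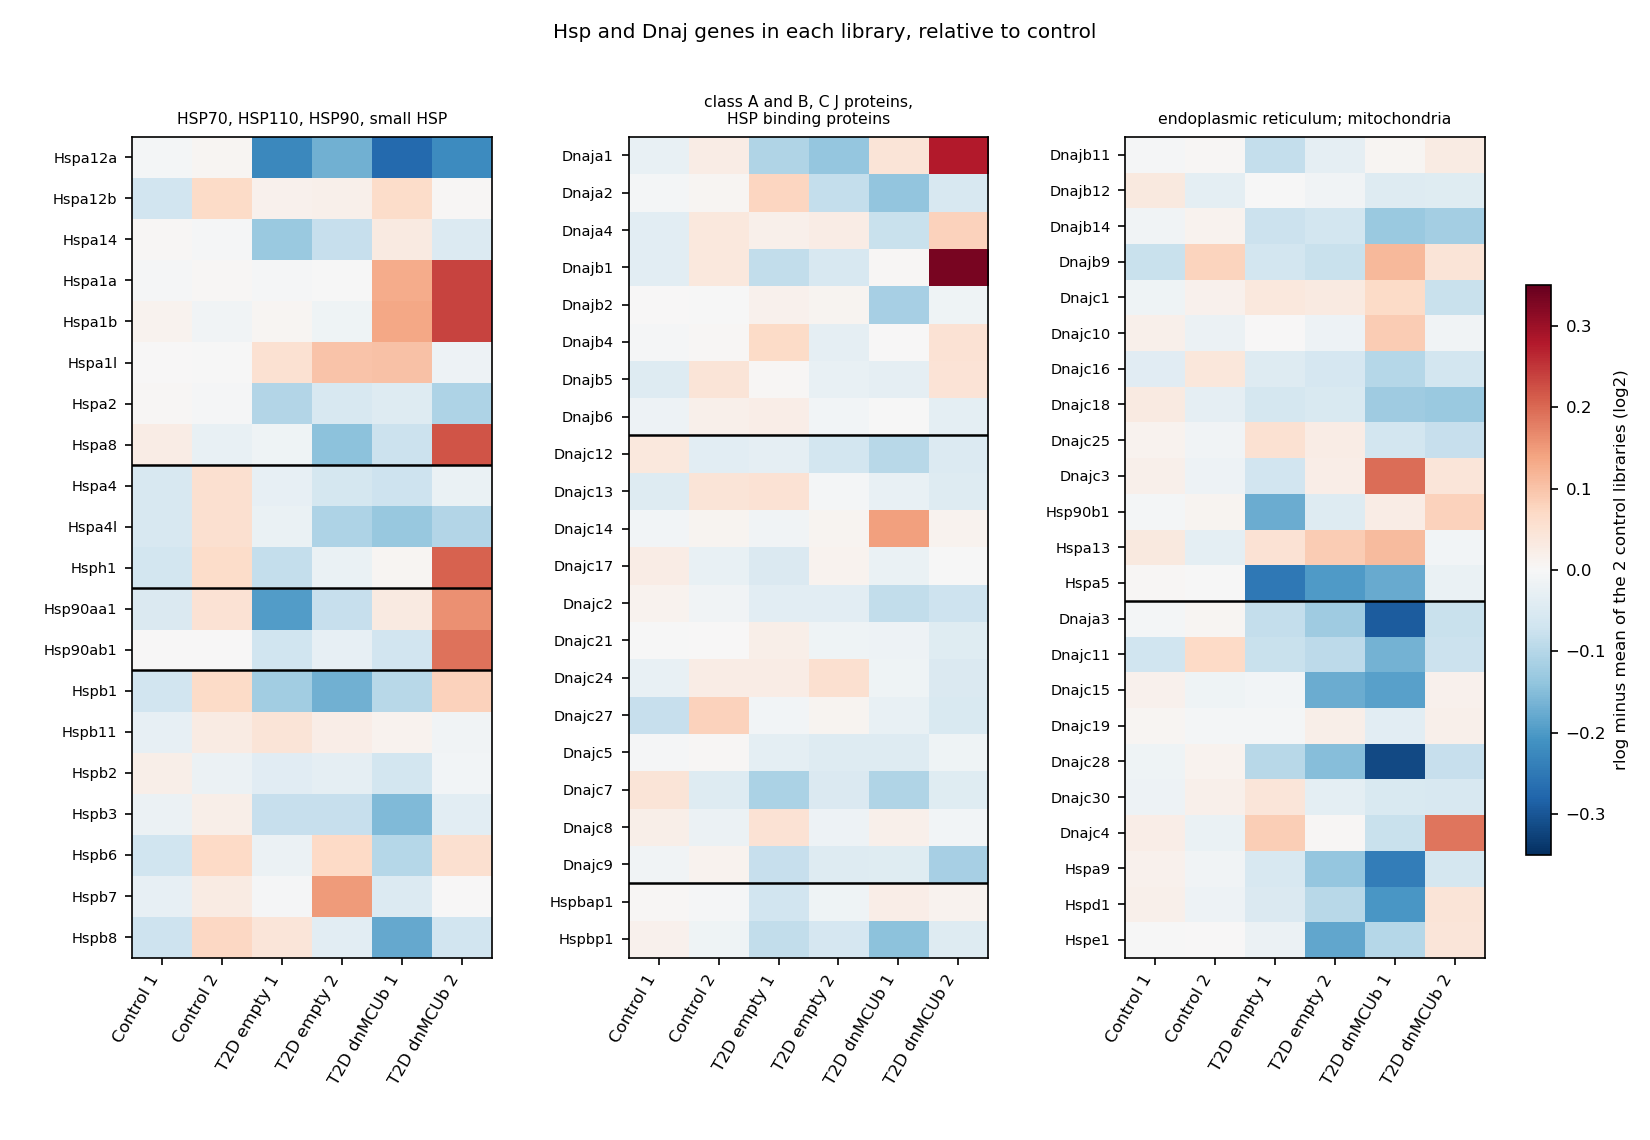
Each row is an Hsp or Dnaj gene, each column a library, and the colour is its rlog minus the mean of the 2 control libraries (log2; red higher, blue lower), with roles divided by black lines. Red gathers in the second T2D dnMCUb library for Hspa1a, Hspa1b, Hspa8, Hsp90ab1, Dnaja1 and Dnajb1, and blue in the first for Hspa9, Dnaja3 and Dnajc28.

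Among cytosolic HSP70 genes, the inducible pair stood out in the T2D dnMCUb hearts. Hspa1a (ENSMUSG00000091971.3, minus strand of chr17:34969190-34972156) was at 5.55 and 5.56 in control, 5.55 and 5.55 with empty vector, and 5.68 and 5.79 with dnMCUb. Hspa1b (ENSMUSG00000090877.3, minus strand of chr17:34956436-34959238) was at 5.65 and 5.62, 5.64 and 5.62, and 5.77 and 5.87 in the same order. For both genes the T2D dnMCUb libraries lay above all 4 others, and control and T2D empty vector overlapped. The differences from empty vector were 0.19 (SE 0.036) for Hspa1a and 0.19 (SE 0.037) for Hspa1b, and 0.18 and 0.19 from control. In limma the unadjusted p of Hspa1a was 0.00104 against empty vector and 0.00113 against control, and the adjusted p 0.780 and 0.129. In the authors' deposited table, which is less compressed for low genes, the log2 folds were 1.63 and 1.64 against empty vector (adjusted p = 0.654 for each) and 1.56 and 1.55 against control (adjusted p = 0.110 and 0.112). Without the first T2D dnMCUb library the Hspa1a difference from empty vector was 0.24 and passed (limma, adjusted p = 0.0442), and without the second it was 0.13 and did not. Red cell markers also differed over the libraries. For 5 of 6 such markers tested, with Slc4a1 below the level for testing, the log2 of the summed level was 12.64 and 11.72 in control, 11.70 and 11.73 with empty vector and 12.47 and 13.00 with dnMCUb, and its part in the Hspa1a and Hspa1b values was not tested.

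These genes are near copies. Their longest open reading frames were identical at 1918 of 1929 aligned bases (99.4%), against 82.9% for Hspa1a and its neighbour Hspa1l and 74.1% for Hspa1a and Hspa8. Reads could be split between Hspa1a and Hspa1b in counting, so they are not 2 independent observations. Their promoters are nearly the same as well, as shown by the 250 bases before each start (RefSeq, GRCm38.p6, minus strand, chr17:34972157-34972406 for Hspa1a and chr17:34959239-34959488 for Hspa1b), which matched at 247 of 250 bases (98.8%). Capitals mark GAANNTTC, the letters of a pair of facing heat shock repeats, which start 104 bases before each transcription start.
Hspa1a: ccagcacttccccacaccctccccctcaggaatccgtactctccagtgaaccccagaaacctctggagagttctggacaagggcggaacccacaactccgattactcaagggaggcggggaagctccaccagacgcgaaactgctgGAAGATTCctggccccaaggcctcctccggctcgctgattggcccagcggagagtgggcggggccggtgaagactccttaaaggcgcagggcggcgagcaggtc
Hspa1b: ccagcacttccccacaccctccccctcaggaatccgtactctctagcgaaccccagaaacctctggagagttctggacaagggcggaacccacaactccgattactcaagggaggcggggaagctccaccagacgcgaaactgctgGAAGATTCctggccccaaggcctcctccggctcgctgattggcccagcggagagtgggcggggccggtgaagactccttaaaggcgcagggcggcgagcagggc

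The remaining HSP70 genes had other orders of libraries. Hspa12a, a distant HSP70 relative, was at 10.02 and 10.03 in control, 9.80 and 9.86 with empty vector and 9.75 and 9.80 with dnMCUb, so every diabetic library lay below both controls. Its difference from control was -0.20 (SE 0.045; limma, unadjusted p = 0.00276, adjusted p = 0.581) with empty vector and -0.25 (SE 0.045; adjusted p = 0.111) with dnMCUb. In limma it had the smallest p of any member in both comparisons with control, which share the controls. In the authors' deposited table its adjusted p was 0.320 with empty vector and 0.189 with dnMCUb. There Hspa5 had a smaller p in the former comparison, and Hspa1a and Hspa1b in the latter. The related Hspa12b, which is enriched in endothelium, ranged from 9.11 to 9.25 with overlapping groups. Hspa14, part of a complex at the ribosome, was at 8.58 and 8.57 in control, 8.44 and 8.49 with empty vector and 8.60 and 8.52 with dnMCUb, a difference of -0.10 (SE 0.044) for empty vector against control. Hspa2 was at 7.54 and 7.53 in control and between 7.43 and 7.49 in the diabetic libraries. On the higher side of empty vector against control, the smallest limma p belonged to Hspa1l, which lies beside Hspa1a (0.08, SE 0.045, adjusted p = 0.842). Hspa8 was at 13.24, 13.19, 13.20, 13.07, 13.14 and 13.44 in the 2 control, 2 T2D empty vector and 2 T2D dnMCUb libraries, so its groups overlapped and its highest value came from the second T2D dnMCUb library.

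Among the HSP90 and HSP110 partners of the cytosolic cycle, Hsp90aa1 and Hsph1 were higher in both T2D dnMCUb libraries than in both T2D empty vector libraries. Hsp90aa1, the inducible HSP90, was at 9.69 and 9.79 in control, 9.55 and 9.66 with empty vector and 9.77 and 9.90 with dnMCUb. Its T2D empty vector libraries were below all 4 others. The differences were -0.14 (SE 0.065) for empty vector against control and 0.23 (SE 0.065; limma, unadjusted p = 0.00746, adjusted p = 0.780) for dnMCUb against empty vector. The first was -0.08 without the first T2D empty vector library. Hsp90ab1 was at 13.84 and 13.84 in control, 13.77 and 13.81 with empty vector and 13.77 and 14.03 with dnMCUb, with the last 2 groups overlapping. The HSP110 gene Hsph1 was at 9.27 and 9.40, 9.25 and 9.31, and 9.34 and 9.54 in the same order, a difference of 0.16 (SE 0.073) between the T2D groups, which was 0.26 without the first T2D dnMCUb library and 0.06 without the second. The other HSP110 genes, Hspa4 and Hspa4l, overlapped between the T2D groups.

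Dnaja1, a class A J protein that serves Hspa8, had the largest rlog difference of any member between the T2D groups, though Hspa1a and Hspa1b had smaller p and larger folds in the authors' deposited table. It was at 8.73 and 8.78 in control, 8.65 and 8.62 with empty vector and 8.80 and 9.03 with dnMCUb, so the 3 groups did not overlap. The difference from empty vector was 0.28 (SE 0.072; limma, unadjusted p = 0.00490, adjusted p = 0.780), and 0.64 as a log2 fold in the authors' deposited table (adjusted p = 0.815). Dnajb1, the class B J protein that is induced with HSP70, was at 8.51 and 8.58, 8.46 and 8.49, and 8.55 and 8.88, a difference of 0.24 (SE 0.094). The gap of 0.33 between its 2 T2D dnMCUb libraries was the largest within any group for any member. Without the first T2D dnMCUb library Dnaja1 (0.40, limma, adjusted p = 0.0374) and Dnajb1 (0.40, adjusted p = 0.0404) passed against empty vector. Without the second the differences were 0.17 and 0.08 and neither passed. The remaining tested genes of classes A and B, Dnaja2, Dnaja4, Dnajb2, Dnajb4, Dnajb5 and Dnajb6, lay between -0.09 and 0.02 in that comparison. Dnajb2, a neuronal and muscle J protein, was at 9.09 and 9.08 with empty vector and 8.96 and 9.06 with dnMCUb. In the same class Dnajb4 and Dnajb5, both expressed in muscle, had overlapping groups in all 3 comparisons.

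The promoter of Dnaja1 is shown since this gene had the largest rlog difference there (RefSeq, GRCm38.p6, plus strand, chr4:40722218-40722467, the 250 bases before the most upstream of its starts). Capitals mark GAANNTTC, 124 bases before that start. The promoters of its other starts (chr4:40722672-40722921 and chr4:40722680-40722929) held no match of any motif searched. Those of Dnajb1 held none either.
Dnaja1: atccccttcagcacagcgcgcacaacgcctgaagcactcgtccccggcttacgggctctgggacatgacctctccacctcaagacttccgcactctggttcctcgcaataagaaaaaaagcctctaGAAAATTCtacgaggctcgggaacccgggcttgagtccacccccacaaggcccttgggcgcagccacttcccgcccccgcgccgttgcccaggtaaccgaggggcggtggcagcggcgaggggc

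**Figure D3:**
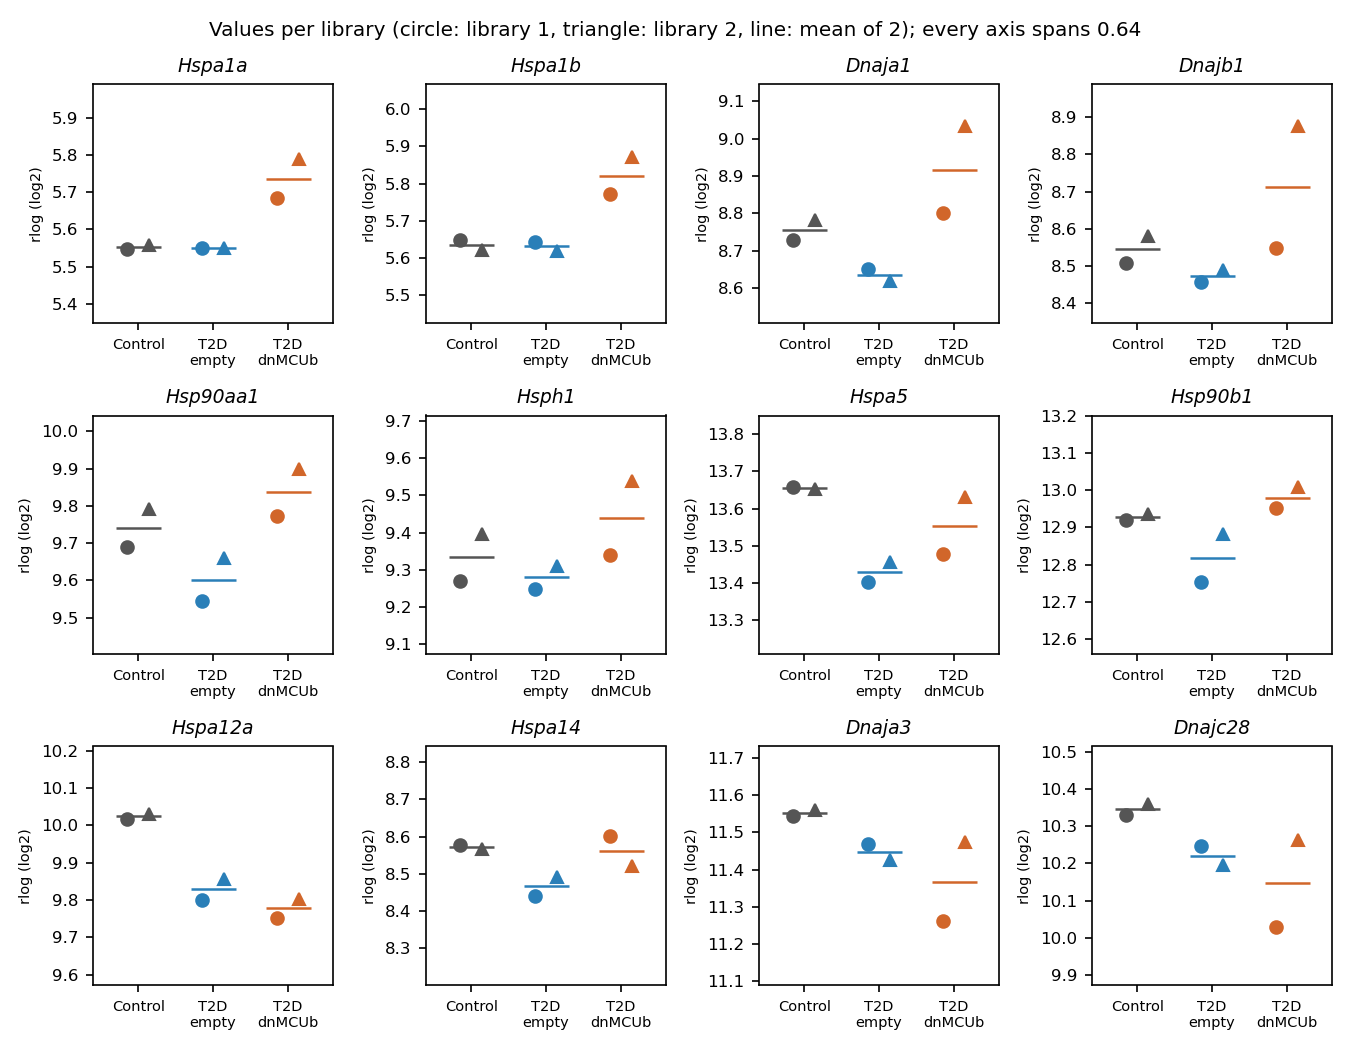
rlog values (log2, vertical axis) of 12 genes in each library, with circles for library 1, triangles for library 2 and a line at the mean of the 2; every axis spans the same width. The T2D dnMCUb libraries lie above the other 4 for Hspa1a, Hspa1b and Dnaja1, Hspa12a is lower in all 4 diabetic libraries than in control, and Hspa5 is lower with empty vector than in every other library.

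In RefSeq promoters of 300 bases (250 before and 50 after a start; 60 of 74 members matched by symbol, with 77 promoters), GAANNTTC was found for 14 of the 60 members (23.33%) and 9.04% of all 27025 genes. The 14 members not matched, among them Hspa8, Hspa9, Hspa13, Hsp90aa1, Hsp90ab1 and Hspb2, were not searched for any motif. TTCNNGAA was found for 6 members (10.0%) and 9.6% of all genes. The longer run of 3 repeats, GAANNTTC with a further GAA 2 bases on, or its reverse complement, which holds both short ones, was found for 4 members (6.67%), Dnajb6, Hspd1, Hspe1 and Hsph1, and for 0.66% of all genes. Hspd1 and Hspe1 hold the same stretch of DNA, so the 4 members are not 4 separate sites. The longer run of Hsph1 lies after its starts, not before them. Both short motifs read the same on either strand. Both directions occurred among holders and others: of 15 tested members with either short motif, 8 were higher and 7 lower with dnMCUb than with empty vector (median 0.01), and of 38 matched members without them 16 were higher and 22 lower (median -0.02).

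Of the 7 small heat shock genes tested, groups were apart for 3 in empty vector against control, 3 between the T2D groups and 1 in dnMCUb against control. Over all genes the shares on the higher and lower sides were 19.9% and 22.5%, 15.6% and 16.5%, and 20.2% and 22.7%, so with 7 genes these counts set nothing apart. Hspb1, which binds damaged actin filaments, was at 8.90 and 9.03 in control, 8.84 and 8.79 with empty vector and 8.87 and 9.04 with dnMCUb. Its difference was -0.15 (SE 0.069) for empty vector against control and 0.14 (SE 0.069) for dnMCUb against empty vector, and neither passed (limma, adjusted p = 0.805 for the first). The second was 0.23 without the first T2D dnMCUb library and 0.05 without the second, and the first was -0.08 without the second control library. Hspb7 ranged from 13.94 to 14.13 and Hspb6 from 11.64 to 11.81 with every pair of groups overlapping. Hspb8 was at 13.28 and 13.19 with empty vector and 13.05 and 13.17 with dnMCUb, a difference of -0.13 (SE 0.077). Hspb2, which shares a divergent promoter with the crystallin gene Cryab, ranged from 9.61 to 9.70. Hspb11, which is an intraflagellar transport subunit in spite of its symbol, was at 5.89 and 5.95 in control and between 5.91 and 5.96 in the diabetic libraries. All 7 lay on the lower side of dnMCUb against control, where 51.5% of all genes did. They ran from -0.12 to -0.0002, the value of Hspb11, with a median of -0.02. None of them had an unadjusted p under 0.05 in limma.

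In the endoplasmic reticulum, Hspa5 (ENSMUSG00000026864.13, plus strand of chr2:34771970-34777547) was the lowest of these genes relative to control in hearts with empty vector. It was at 13.66 and 13.65 in control, 13.40 and 13.46 with empty vector and 13.48 and 13.63 with dnMCUb, so the 3 groups did not overlap. The difference of empty vector from control was -0.23 (SE 0.073; limma, unadjusted p = 0.0159, adjusted p = 0.762), whereas the authors' deposited table lists a log2 fold of -0.32 with an adjusted p of 0.00701, a fall by their test. The difference of dnMCUb from empty vector was 0.12 (SE 0.073). It was 0.05 without the second T2D dnMCUb library and 0.20 without the first. Hsp90b1, also called GRP94, was at 12.92 and 12.94 in control, 12.75 and 12.88 with empty vector and 12.95 and 13.01 with dnMCUb, differences of -0.11 (SE 0.066) and 0.16 (SE 0.066), which without the first T2D empty vector library were -0.04 and 0.10. Dnajb9, a J protein that restrains the stress sensor IRE1, was 0.15 (SE 0.058) higher with dnMCUb than with empty vector. Dnajc3, which inhibits the kinase PERK, was at 10.85 and 10.94 with empty vector and 11.11 and 10.96 with dnMCUb, a difference of 0.14 (SE 0.064), which was 0.06 without the first T2D dnMCUb library and 0.22 without the second. Dnajc25, a membrane J protein, had a difference of -0.11 between the T2D groups (SE 0.038; limma, unadjusted p = 0.0208), and the membrane J proteins Dnajb14 and Dnajc18 were lower with dnMCUb than in control by differences of -0.13 each (SE 0.040 and 0.043). On the higher side of empty vector against control were Hspa13, an HSP70 of microsomes (0.07, SE 0.053), and Dnajc25 (0.04, SE 0.038). Of the 13 tested members placed in this compartment, 10 were lower with empty vector than in control, 6 of them with groups apart (22.5% of all genes). The other 3 were higher, all 3 with groups apart (19.9% of all genes). Between the T2D groups 6 were higher and 7 lower, with 5 apart on each side (15.6% of all genes on the higher side and 16.5% on the lower).

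Hspa5, Hsp90b1 and Dnajc3 share a promoter feature: CCAAT and CCACG with 9 bases between them, the letters of the endoplasmic reticulum stress element, occur on either strand in 300-base promoters of 3 of the 60 matched members (5.0%) and of 0.14% of all genes. The matches are shown with 5 bases on each side and the fixed letters in capitals (RefSeq, GRCm38.p6), at chr2:34772020-34772048, plus strand, for Hspa5, at chr10:86705633-86705661 and chr10:86705528-86705556, minus strand, for Hsp90b1, and at chr14:118937822-118937850, plus strand, for Dnajc3. The Hspa5 match lies within the gene body, which starts further upstream in the annotation, and the proximal Hsp90b1 match reads on the opposite strand.
Hspa5: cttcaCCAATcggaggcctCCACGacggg
Hsp90b1 distal: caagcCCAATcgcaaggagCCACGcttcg
Hsp90b1 proximal: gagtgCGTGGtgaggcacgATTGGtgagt
Dnajc3: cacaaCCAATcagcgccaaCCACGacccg

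Of these 3 members, Hspa5 and Hsp90b1 were lower with empty vector than in control with groups apart (-0.23 and -0.11). Dnajc3 was at -0.02 (SE 0.064) there with groups overlapping. All 3 were higher with dnMCUb than with empty vector (0.12 to 0.16), and both comparisons share the T2D empty vector libraries. The stress element was added after values were seen, so these directions are no test of it. The other folding genes of the endoplasmic reticulum, which are no members of the rule, had 11 of 11 lower with empty vector than in control (median -0.07). Groups were apart for 7, against 22.5% of all genes on that side. With dnMCUb 11 of 11 were higher than with empty vector (median 0.13), 9 with groups apart, against 15.6% of all genes. None passed over all genes in limma. Manf, a secreted partner of Hspa5, was at 9.01 and 9.10 in control, 8.71 and 8.80 with empty vector and 8.96 and 9.10 with dnMCUb. Its differences were -0.30 (SE 0.061; limma, adjusted p = 0.491) and 0.28 (SE 0.061; adjusted p = 0.780), and the adjusted p of the first in the authors' deposited table was 0.0172. The mean of these 11 genes about their average was -0.12 in the first and -0.03 in the second T2D empty vector library and between 0.0035 and 0.08 in the other 4.

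Of the 10 mitochondrial members, 7 were lower than in control with empty vector and 9 with dnMCUb (6 and 5 with groups apart, where 22.5% and 22.7% of all genes were), and none passed in the fit of all libraries. Hspa9 was at 13.96 and 13.93 in control, 13.89 and 13.81 with empty vector and 13.70 and 13.88 with dnMCUb, with both diabetic groups below control (differences of -0.10 and -0.15, SE 0.081). The second was -0.06 without the first T2D dnMCUb library and -0.24 without the second, and the first was -0.06 without the second T2D empty vector library. Dnaja3, the J protein that serves Hspa9, was at 11.54 and 11.56, 11.47 and 11.43, and 11.26 and 11.47. Its difference of dnMCUb from control was -0.19 (SE 0.072; limma, unadjusted p = 0.0351, adjusted p = 0.397). Dnajc28 was at 10.33 and 10.36, 10.25 and 10.20, and 10.03 and 10.26, a difference of -0.20 (SE 0.075). Without the second T2D dnMCUb library Dnaja3 (-0.29, adjusted p = 0.0261) and Dnajc28 (-0.32, adjusted p = 0.0203) passed against control, and without the first their differences were -0.08 and -0.08 and did not pass. The mean of the 10 genes about their average was lowest in the first T2D dnMCUb library, at 0.05 and 0.05 in control, 0.02 and -0.05 with empty vector and -0.12 and 0.04 with dnMCUb. The mean of the 6 ventricular myocyte markers was lowest in the same library, at 0.16 and 0.09, -0.03 and -0.06, and -0.20 and 0.04 in that order, and its part in these values was not tested. Dnajc15, of the inner membrane, overlapped between all groups, from 9.68 to 9.89.

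Hspd1 (HSP60) and Hspe1 (HSP10), which form the folding chamber of the matrix, lie head to head on chromosome 1. Hspd1 was at 11.96 and 11.93 in control, 11.89 and 11.85 with empty vector and 11.74 and 11.99 with dnMCUb. Hspe1 was at 9.60 and 9.60, 9.58 and 9.42, and 9.50 and 9.64. For both genes T2D empty vector lay below control without overlap (differences of -0.07 and -0.10, SE 0.081 and 0.068; -0.02 for Hspe1 without the second T2D empty vector library), and the T2D dnMCUb libraries lay on either side. The 107 bases between the 2 gene bodies hold the longer heat shock run and are shown on the plus strand, with the matching letters in capitals (RefSeq, GRCm38.p6, chr1:55088025-55088131).
Hspd1 to Hspe1: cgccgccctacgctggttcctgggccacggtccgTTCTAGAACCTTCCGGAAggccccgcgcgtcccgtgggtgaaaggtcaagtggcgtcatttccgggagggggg

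The 12 tested genes of the class C role are the class C J proteins not placed under endoplasmic reticulum or mitochondria here. They lay between -0.08 and 0.08 in all 3 comparisons, and none had an unadjusted p under 0.05. Dnajc7, a J protein with binding sites for HSP70 and HSP90, was at 10.32 and 10.23 in control, 10.17 and 10.23 with empty vector and 10.17 and 10.23 with dnMCUb. Dnajc24, needed to make diphthamide, had a difference of -0.07 (SE 0.035) between the T2D groups. Dnajc14, at 9.91 in the first T2D dnMCUb library and between 9.75 and 9.78 in the others, was the 1 member of this class on the higher side with groups apart. The HSP70 exchange factor Hspbp1 was at 8.22 and 8.19 in control and between 8.07 and 8.16 in the diabetic libraries.

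**Figure D4:**
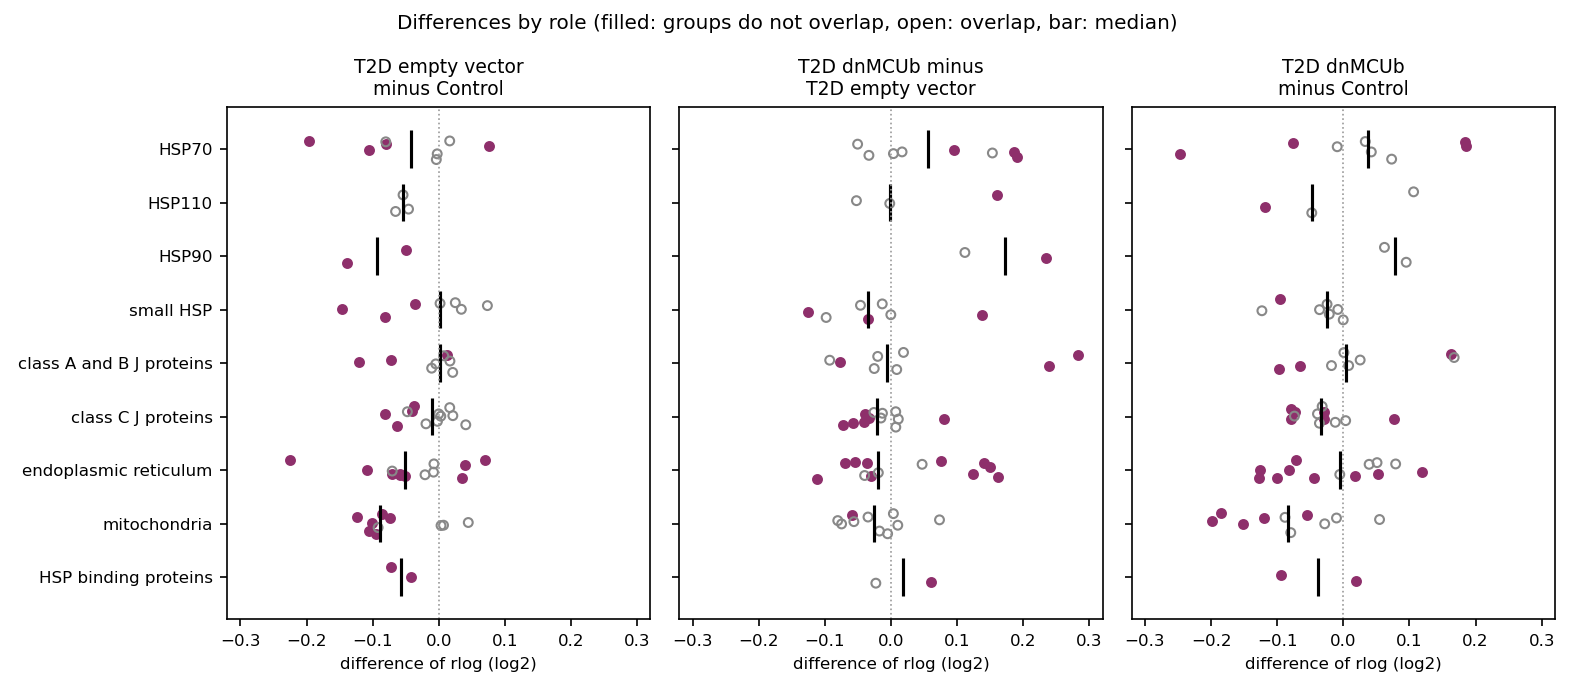
Differences of rlog (log2, horizontal axis) for each tested Hsp and Dnaj gene by role in the 3 comparisons, filled where the groups do not overlap and open where they do, with a bar at the median of the role. Mitochondrial genes have medians of -0.09, -0.03 and -0.08 from left to right, and the HSP90 pair stands at -0.09, 0.17 and 0.08.

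Partners of the chaperones outside the rule, 62 genes of which 61 were tested, had 47 lower and 14 higher with empty vector than in control (median -0.05). Groups were apart for 30 on the lower side and 5 on the higher, where 22.5% and 19.9% of all genes were. With dnMCUb 38 were higher and 23 lower than with empty vector (median 0.01). There 17 were apart on the higher side and 6 on the lower, where 15.6% and 16.5% of all genes were. None passed in limma. The transcription factor genes Hsf1 and Hsf2 lay between 8.33 and 8.39 and between 8.70 and 8.77. Subunits of the cytosolic chaperonin CCT and of prefoldin were lower with empty vector than in control for 13 of 14 genes (median -0.08). Of these, 10 had groups apart, against 22.5% of all genes. In dnMCUb against control 13 of 14 were also lower (median -0.06), 4 with groups apart, against 22.7% of all genes. Between the T2D groups 9 were higher and 5 lower. Fkbp5, an HSP90 partner that is a target of the glucocorticoid receptor, was at 8.06 and 8.14 in control, 8.38 and 8.25 with empty vector and 8.66 and 8.48 with dnMCUb. Its difference of dnMCUb from control was 0.47 (SE 0.071; limma, adjusted p = 0.0682), with an adjusted p of 0.000118 in the authors' deposited table. The small heat shock protein gene Cryab was at 13.78 and 13.81, 13.73 and 13.67, and 13.52 and 13.72, below control in both diabetic groups (differences of -0.10 and -0.18). Lonp1, a matrix protease, and Bag2, an inhibitor of client breakdown, had the smallest p on the lower side between the T2D groups (-0.14 and -0.13).

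The mean profile of the 13 cytosolic HSP70, HSP110 and HSP90 genes about their averages was -0.0084 and 0.03 in control, -0.05 and -0.04 with empty vector and -0.0011 and 0.07 with dnMCUb. These 13 genes did not all follow it: their Pearson r ran from -0.671 for Hspa1l to 0.957 for Hsp90aa1, with Hspa2 at 0.008. Members outside these roles that followed it most closely over the 6 libraries were Dnaja1 (Pearson r = 0.934), Hspb1 (0.928), Dnajb1 (0.903), Dnajb11 (0.862) and Hsp90b1 (0.856), while Dnajc25 had r = -0.826. Among the genes outside the rule, Zdhhc16 (0.988), Swt1 (0.985), Thap2 (0.983), Kin (0.980) and Dhx15 (0.975) were nearest. With 6 libraries and 13094 genes searched, these values only order the genes, which were measured in the same libraries, and no test was made.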

How the data were processed

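RNA sequencing of 6 mouse heart libraries was read from 1 table of the whole series. The authors deposited one rlog value (log2 scale) per gene and library. For each of 3 comparisons the deposited table also has folds in log2, with p-values raw and adjusted. STAR 2.5.2a, bcl2fastq 2.20.0.422 and DESeq2 appear, without roles, in the submitters' processing notes. How reads were counted, and whether by strand, is not given in the sources used here. Depth is unknown without counts, so no counting interval is given. Differences were fitted with limma 3.58.1 in R 4.3.3 on all 6 libraries, with a term per group (3 residual degrees of freedom, prior 4.6), and a mean-variance trend. Calls used 0.05 after Benjamini-Hochberg adjustment across 13094 genes, those whose mean rlog reached 5. The fit was tested on simulated data. Errors are limma's standard errors. An exact permutation of 2 libraries against 2 cannot reach 0.05 and was not used. Named members are the 5 per direction with the smallest p in each comparison, those past a threshold in limma or in the authors' table, and 26 fixed members; differences of fixed members are given where groups do not overlap, or to name the overlap. Hspa12b, Dnajb6, Dnaja2, Dnaja4, Hspa4l, Dnajb11, Dnajc14, Hspbp1, Hspbap1, Hsf1, Hsf2 and Cryab were named after their values were seen. The members, roles and lists were chosen with earlier results of these data known. Gene coordinates are those of the deposited table; all 74 members overlapped, and 36 had the same start and end as, the entry of the same identifier in a GENCODE annotation of GRCm38. Motifs were matched in RefSeq promoters (GRCm38.p6), and the stress element was added after values were seen. Alternatives were other minimums of rlog, no trend, only the groups compared, centred libraries, each library left out and the replicate number as a block.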

Additional observations from a re-analysis of the deposited data

How the results depend on the processing

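The counts over all genes turned on the libraries in the fit. For T2D empty vector against control, limma called 0 genes with all libraries and 30 with only the libraries of those groups, and between 0 and 30 when each library was left out; the members called stayed at 0 throughout and their median between -0.0449 and -0.0277. For T2D dnMCUb against T2D empty vector, leaving out each library gave 0 to 14 genes, 0 to 3 members (Hspa1a, Dnaja1 and Dnajb1, without the first T2D dnMCUb library) and medians from -0.0227 to 0.0222. For T2D dnMCUb against control, the 9 genes called became 0 with no filter on low values, with a mean rlog of at least 8, with no trend, with only the libraries compared, with libraries centred on their medians and with the replicate block. Leaving out each library gave 0 to 743 genes there, 0 to 4 members and medians from -0.0458 to -0.0138. The 743 genes and 4 members (Hspa1a, Hspa12a, Dnaja3 and Dnajc28) came without the second T2D dnMCUb library, and 89 genes and 3 members (Hspa1a, Hspa1b and Dnajb1) without the first. Where a group was left with 1 library, that library was assumed to vary like the others. Of the 65 members tested, 40, 36 and 40 kept their sign with each library left out in the 3 comparisons, in the order above. Of the 65, 33, 29 and 31 had groups apart, and their sign cannot change when 1 library is left out. Members with overlapping groups turned, such as Hsp90ab1 (0.06 in dnMCUb against control, -0.07 without the second T2D dnMCUb library), Hspa8 (0.07 and -0.07 likewise) and Hspa9 (-0.06 between the T2D groups, 0.03 without the first T2D dnMCUb library). The labels do not say whether the replicate numbers pair the samples. Over genes, library 2 minus library 1 correlated at -0.088 between control and T2D empty vector. It correlated at -0.013 between control and T2D dnMCUb and at -0.511 between the T2D groups. Each group gives only 1 such difference, so these values cannot decide whether samples were paired. The replicate block called 0 genes and 0 members in every comparison. With no counts, low genes such as Hspa1a are limited by the shrinkage of rlog, and sampling noise cannot be given.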
